A study of Mus musculus with 5 samples.

Results

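The transcripts described here are those of 52 genes of the G2 phase and of mitosis, a set chosen by name as the machinery of cell division, out of 24411 genes in the deposited table. They were read in 294 single cells of 480 table columns, the cells with at least 1000 genes and 30000 UMIs (unique molecular identifiers, 1 for each captured molecule). The cells came from wild-type C57BL/6 mouse embryos at embryonic day 9.5 (E9.5, 2 batches) and day 10 (E10, 3 batches). All were circulating cells taken with the blood of the heart, sorted for the absence of TER119, CD41, CD43 and CD45 and picked singly by hand, so every group compared below shares this strain, genotype and sort. No embryo was treated or carried a modified allele. A level per cell is given in CPM, the gene's UMIs per 1000000 UMIs of that cell, and the member sum is the summed CPM of the 52 genes.

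Cyclin-dependent kinase 1 with its B-type cyclins drives a cell from G2 into mitosis. Aurora kinases, the chromosomal passenger complex and the kinetochore then tie chromosomes to a spindle built by kinesins and other microtubule proteins, condensins and topoisomerase II shape the chromosomes, and the anaphase-promoting complex ends mitosis by marking cyclin B and securin for destruction. Most of these genes are transcribed in a wave that peaks in late G2 and are repressed in cells that leave the cycle, for which proliferation markers such as Mki67 and Top2a are commonly read. Embryonic neurons leave the cycle as they differentiate, while primitive erythroblasts of this age still divide in the circulation.

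The 294 cells held 31294 to 1407021 UMIs, with batch medians of 144729 to 485692, and all 52 genes were detected in the pooled cells. Of the sort antigens, Ptprc, which encodes CD45, had 0 UMIs in the kept cells, and Spn (CD43) and Itga2b (CD41) had a median of 0 over them. Erythroid transcripts were high in 46 cells although the sort was negative for TER119. Embryonic globin transcripts were found outside them too. Hbb-y had a median of 3268 to 4209 CPM in the Prrx1, Tubb3 and Sox10 cells described below, 104 in the Dppa5a cells and 8059 in cells of no gate, which also had low levels of Slc4a1 (17.4 CPM) and Gata1 (14.2). Nothing in the labels says whether batches were separate litters, so the p-values below measure the spread between batches, which may be technical.

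The 52 genes differed widely in level. Hmgb2, a chromatin protein that binds bent DNA, had a median of 1557 CPM, a UMI in 100% of cells and 19.0% of all member UMIs. The heterochromatin protein Cbx5 (474 CPM) and the kinase partner Cks1b (383 CPM) came next. Top2a, topoisomerase II alpha, was at 246 CPM, close to Birc5 (244 CPM), the survivin subunit of the passenger complex, and Mki67 (217 CPM), which coats mitotic chromosomes. Gas2l3, a cytokinesis protein, was the sparsest, with a median of 0 and a UMI in 32.7% of cells. As 1 UMI stands for 1 captured molecule, these levels carry no correction for transcript length.

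Most of the set varied together from cell to cell. Correlated on the log2 scale against the summed level of the other 51 genes over 294 cells, Ube2c, the ubiquitin-conjugating enzyme of the anaphase-promoting complex, had the highest coefficient (r = 0.77), and Hmgb2 (0.74), Birc5 (0.73), the spindle assembly factor Tpx2 (0.72) and the passenger subunit Cdca8 (0.71) came next. The lowest were Ctcf (0.25), an insulator protein used throughout the cycle, Hjurp (0.26), the chaperone of the centromeric histone, G2e3 (0.33) and the lamin B receptor Lbr (0.34). These coefficients describe cells that share libraries and depth. The member sum correlated with the number of UMIs per cell at r = 0.20 and with the sum of 33 DNA replication genes at r = 0.48, the former from -0.01 in E9.5 replicate 2 to 0.46 in E10 replicate 1 and the latter from 0.17 in E10 replicate 2 to 0.78 in E10 replicate 3.

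What the genes shared beside their role was also looked for in their promoters, since genes of the late cell cycle are known to carry a cell cycle homology region (CHR) and CCAAT boxes near the transcription start. RefSeq windows on GRCm38.p6, the assembly of the files' mm10 build, matched 46 of the 52 genes. In the 250 bases before the start, the letters TTTGAA or TTCGAA on either strand stood in 22 of the 46 (47.8%), against 17.5% of the 17224 genes of the table that have a window. CCAAT on either strand stood in 35 (76.1%) against 39%, and at least 2 copies in 26 (56.5%) against 12.6%. Both kinds were held by 19 genes (41.3%), against 6.57% of all. The stretches below are shown because they are from those 19 genes and belong to members described further on: Top2a, Mki67 and Hmgb2, which were named for every test over batches, the spindle motor gene Kif11, which had the lowest adjusted p of the members in the Tubb3 test, and Tubb4b and Lbr, which were called in Alas2 cells. Not every called member holds both: Birc5 and Nuf2 hold neither kind in this window, and Hmmr holds CCAAT alone. Capitals mark the CHR letters (TTTGAA, or on the other strand TTCAAA) and the CCAAT box (on the other strand ATTGG). Each sequence runs 5′ to 3′ on the strand of its gene. They lie at chr11:99024195-99024275 (minus strand, Top2a), chr7:135716460-135716528 (minus, Mki67), chr8:57511762-57511830 (plus, Hmgb2), chr19:37376329-37376380 (plus, Kif11), chr2:25224883-25224931 (minus, Tubb4b) and chr1:181842429-181842477 (minus, Lbr).
Top2a: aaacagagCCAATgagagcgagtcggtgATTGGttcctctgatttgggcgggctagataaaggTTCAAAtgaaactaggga
Mki67: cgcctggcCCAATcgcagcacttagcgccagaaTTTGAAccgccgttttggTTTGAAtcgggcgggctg
Hmgb2: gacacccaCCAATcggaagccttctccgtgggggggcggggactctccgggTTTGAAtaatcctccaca
Kif11: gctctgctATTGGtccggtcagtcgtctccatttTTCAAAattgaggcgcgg
Tubb4b: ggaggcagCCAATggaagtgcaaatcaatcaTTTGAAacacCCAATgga
Lbr: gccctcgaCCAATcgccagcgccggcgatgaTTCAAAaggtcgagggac
The CHR letters nearest the start lay 23 bases before it in Top2a, 19 in Kif11, 30 in Hmgb2, 45 in Lbr, 98 in Mki67 and 198 in Tubb4b. A match describes letters in a window and was not tested as a binding site. The share with CHR letters was 75% of 12 members that are also used outside mitosis (Hmgb2, Cbx5, Tubb4b, Lbr and others) and 38.2% of the 34 others.

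The member sum ranged from 1263 to 26517 CPM per cell, with a median of 8331. A cell was called quiet when its sum lay under 0.5 of that median, 4166 CPM, and the others are called cycling-range cells. This is a range and not a cell type, and 40 cells lay near the limit, between 3332 and 5207 CPM. The quiet range held 59 of 294 cells (20.1%), with 7 of 26 in E9.5 replicate 1 (26.9%), 7 of 46 in E9.5 replicate 2 (15.2%), 20 of 87 in E10 replicate 1 (23.0%), 3 of 72 in E10 replicate 2 (4.17%) and 22 of 63 in E10 replicate 3 (34.9%). The E10 batches held both the lowest and the highest share, with the 2 E9.5 batches between them.

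Cells were grouped by a single marker transcript. The Tubb3 gate (neuronal beta-tubulin of at least 150 CPM) took 31 cells, the Sox10 gate (at least 50 CPM) 30, the Alas2 gate (at least 400 CPM) 46, the Dppa5a gate (at least 500 CPM) 25 and the Prrx1 gate (at least 100 CPM) 128, and 67 cells were in none. The gates overlap: 12 cells were in the Tubb3 and Sox10 gates, 13 in the Dppa5a and Prrx1 gates and 3 in the Tubb3 and Dppa5a gates. Tubb3 cells had the neuronal transcripts Nefm (median 2091 CPM), Elavl4 (683) and Isl1 (448). Sox10 cells had the neural crest genes Ets1 (98.0 CPM), Tfap2a (48.3) and Foxd3 (31.3), with Erbb3 at a median of 0. Alas2 cells had Gata1 (125 CPM), Klf1 (348), Slc4a1 (688) and Hbb-y (77989), although the sort excluded TER119. Prrx1 cells had the mesenchymal genes Twist1 (208 CPM), Pdgfra (82.1) and Col3a1 (427). Dppa5a cells had the early embryo genes Zfp42 (518 CPM), Nanog (229) and Tdgf1 (167), with Pou5f1 at 13.3 and the germ cell genes Dppa3, Ddx4 and Dnd1 at a median of 0, and all 25 came from E10 replicate 1.

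The share of quiet cells was highest in the Tubb3 and Sox10 gates. The median member sum was 2845 CPM in Tubb3 cells and 4572 in Sox10 cells, against 6272 in Alas2, 7782 in Dppa5a, 8792 in Prrx1 cells and 8765 in cells of no gate. In the Tubb3 gate 19 of 31 cells were quiet (61.3%, exact binomial 95% interval 42.2 to 78.2), in 1 of 5 cells of E9.5 replicate 2, 5 of 8 of E10 replicate 1, 0 of 2 of E10 replicate 2 and 13 of 16 of E10 replicate 3. With quiet set at 0.25 of the median in place of 0.5, the share was 29.0% of Tubb3, 10% of Sox10 and 4.42% of all cells. Near the limit at 0.5 lay 3 of 31 Tubb3 cells and 6 of 30 Sox10 cells. In the Sox10 gate 14 of 30 were quiet (46.7%, 28.3 to 65.7), with 2 of 3, 2 of 5, 5 of 10, 0 of 2 and 5 of 10 in the batches in order. The share was 8 of 46 in Alas2 cells (17.4%, 7.82 to 31.4), 2 of 25 in Dppa5a cells (8.00%, 0.984 to 26.0) and 16 of 128 in Prrx1 cells (12.5%, 7.32 to 19.5), and 10 of 67 in no gate (14.9%). These intervals cover counting error only. In cells of no gate the 10 quiet cells had a median of 107112 UMIs and the 57 others 387391. The part of depth in these shares was not tested. The Tubb3 and Sox10 gates held 49 cells and 26 of the 59 quiet cells, and the 245 cells outside both had 33 (13.5%). In those, the share was 21.7% and 12.8% in the E9.5 batches and 16.7%, 4.41% and 18.6% in the E10 batches. The Alas2 share rested on the total: with haemoglobin genes left out of each cell's total it was 4.35%, and the median sum of Alas2 cells moved to 7895 CPM.

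**Figure D1:**
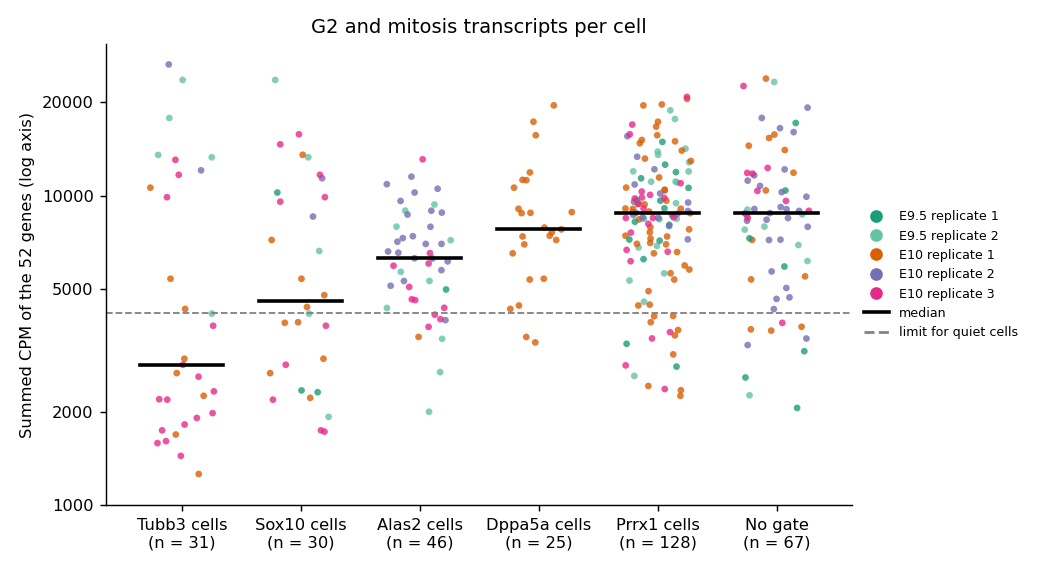
Summed CPM of the 52 genes in each cell (log axis) by marker gate, coloured by batch, with the median of each gate as a bar and the limit for quiet cells dashed; a cell in more than 1 gate is drawn in each. Most Tubb3 cells lie under the limit of 4166 CPM (19 of 31), and most Prrx1 cells above it (16 of 128 quiet).

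Within the Tubb3 gate, 19 quiet and 12 cycling-range cells were set side by side as a description, since the member sum itself divides them. The median was lower in the quiet cells for 51 of 52 genes, and for 30 the highest quiet cell lay under the median of the cycling-range cells. Among the genes that drive entry into mitosis, Cdk1 had a median of 6.48 CPM in quiet and 142 in cycling-range cells. Ccnb2, cyclin B2, had 3.57 and 269 CPM. The 2 ranges of Ccnb2 met only at their edges, with quiet cells up to 17.1 CPM and cycling-range cells from 3.35.

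The genes of the chromosome and its attachment parted as far. Mki67 had a median of 8.85 CPM in quiet cells (0 to 37.2) and 312 in cycling-range cells (14.8 to 1247). Top2a had 19.6 CPM (0 to 242) against 498 (15.1 to 1423). Birc5 had 9.72 CPM (3.30 to 47.8) against 359 (51.8 to 777), with no overlap between the ranges. Cenpa, the histone variant that marks centromeres, had 20.7 against 457 CPM, and Aurkb, the kinase of the passenger complex, 0 against 40.6. Cdc20, an activator of the anaphase-promoting complex, had medians of 0 and 117 CPM, and Ube2c of 9.89 and 289 CPM.

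By role, the ratio of the medians was widest for the passenger complex and narrowest for the nuclear envelope. The summed passenger complex genes had 20.7 CPM in quiet and 792 in cycling-range Tubb3 cells, the 4 other mitotic kinases 10.3 and 248, the cytokinesis genes 12.6 and 276, and the kinetochore genes 65.3 and 968. The spindle genes had 190.5 and 1589.9 CPM, the cyclin-dependent kinase group 185 and 1487, and nuclear envelope genes 271 and 667. The 13 members that are also used outside mitosis summed to 1805 CPM in quiet and 6613 in cycling-range cells, and the other 39 to 286 and 6403. Among the former, Hmgb2 was at 311 and 2886 CPM, Cbx5 at 258 and 590, and Ctcf at 76.8 and 138. The median member sum of the quiet cells was 2195 CPM, so most of it lay in these 13 genes.

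Genes outside the set were read in the same Tubb3 cells. The 33 DNA replication genes summed to a median of 1470 CPM in quiet and 4180 in cycling-range cells. The neuronal marker list summed to 7183 and 4241 CPM, with ranges of 1142 to 21624 and 343 to 10919 that overlap. Cdkn1c, an inhibitor of cyclin-dependent kinases, was high in both, at 2780 and 3026 CPM. UMIs per cell had medians of 303374 and 274482, and the erythroid list was at 8572 and 12113 CPM. The early embryo list was at a median of 10.3 CPM in quiet cells (up to 176) and 136 in cycling-range cells (up to 5861). The 3 cells in both the Tubb3 and Dppa5a gates were all in the cycling range, and were the only cycling-range Tubb3 cells of E10 replicate 1. The part of depth, of erythroid transcripts and of early embryo transcripts in the contrast was not tested.

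**Figure D2:**
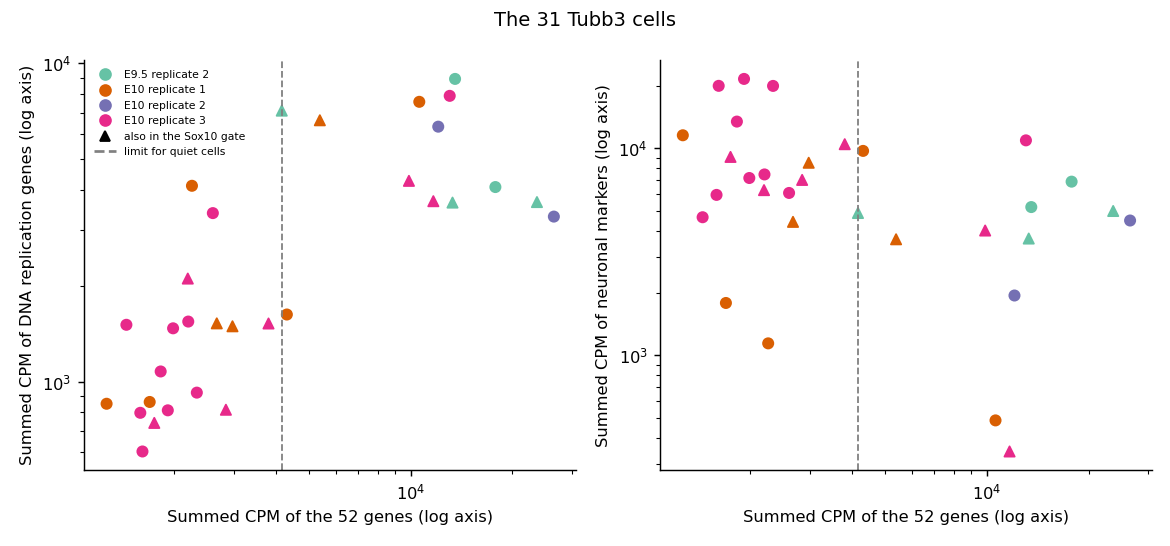
The 31 Tubb3 cells by their summed CPM of the 52 genes (x, log axis) against the summed CPM of 33 DNA replication genes (left) and of the neuronal marker list (right, log axes), coloured by batch, with triangles for cells also in the Sox10 gate and the limit for quiet cells dashed. The quiet cells, left of the line, are mostly low in replication genes (median 1470 against 4180 CPM), while neuronal markers overlap between the sides.

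For a test over batches, the UMIs of Tubb3 cells and of all other cells were summed within each batch that had at least 3 cells on each side, and edgeR's quasi-likelihood test was fitted on all genes with the batch as a block. Levels of such sums are CPM scaled by TMM (trimmed mean of M values), and 52 of 52 members passed the filter on low counts here and in each test below. In E10 replicate 1 51 of 52 genes were lower inside the Tubb3 gate (median ratio 0.381), in E10 replicate 3 also 51 (0.228), and in E9.5 replicate 2, which had 5 Tubb3 cells, 11 (1.45). With p adjusted by Benjamini-Hochberg over all genes in edgeR's quasi-likelihood test, 0 members were called at 0.05, while 1.97% of the 11613 genes tested were called lower and 3.19% higher. At an unadjusted p under 0.05 there were 22 members (19% of all genes), and DESeq2 called 14 members lower, beside 5.98% of genes. The median log2 fold change was -1.08 over the members and -0.18 over all genes, and 51 of 52 were negative. That median moved with the setting and was -1.80 without E9.5 replicate 2, -0.59 without E10 replicate 3, -0.47 with cells of at least 5000 UMIs, -0.54 without the block and -0.18 with halved gate limits, where that of all genes was -0.11.

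Mki67 was at 82.5 CPM inside against 261 outside in E10 replicate 1, 101 against 394 in E10 replicate 3 and 234 against 259 in E9.5 replicate 2. Its log2 fold change was -1.27 (SE 0.37, n = 3 batches, edgeR adjusted p = 0.0736). Top2a was at 194 against 496 CPM and 95.1 against 429 in the same E10 batches, and at 505 against 251 in E9.5 replicate 2. All 3 values of Mki67 lie under their partners, while Top2a turns round in the E9.5 batch. The lowest adjusted p of a member was that of Kif11, the motor that pushes spindle poles apart, which was at 8.01 against 86.7, 13.9 against 104 and 58.2 against 72.8 CPM (log2 -2.25, SE 0.62, edgeR adjusted p = 0.0575).

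Cdk1 showed the same turn, with 64.4 against 181 CPM, 25.4 against 175, and 310.3 against 180.1 in E9.5 replicate 2. Ube2c was at 58.1 against 380.0 CPM, 51.3 against 308, and 596 against 328 there. Hmgb2 was at 961 against 1582 CPM, 798 against 1726, and 3124 against 2339 there. Ccnb2, Cdc20 and Cenpa were likewise under their partners in both E10 batches and above them in E9.5 replicate 2, whereas Aurkb and Birc5 lay under them in all 3. For a difference of the gate's contrast between stages, E9.5 had 1 batch with 5 Tubb3 cells. Stage and batch cannot be told apart there, so no p-value is read for it. Without E9.5 replicate 2 edgeR called 26 members lower (1.94% of genes), without E10 replicate 1 it called 4 (6.58% of genes), and without E10 replicate 3 it called 0 (0.562%).

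**Figure D3:**
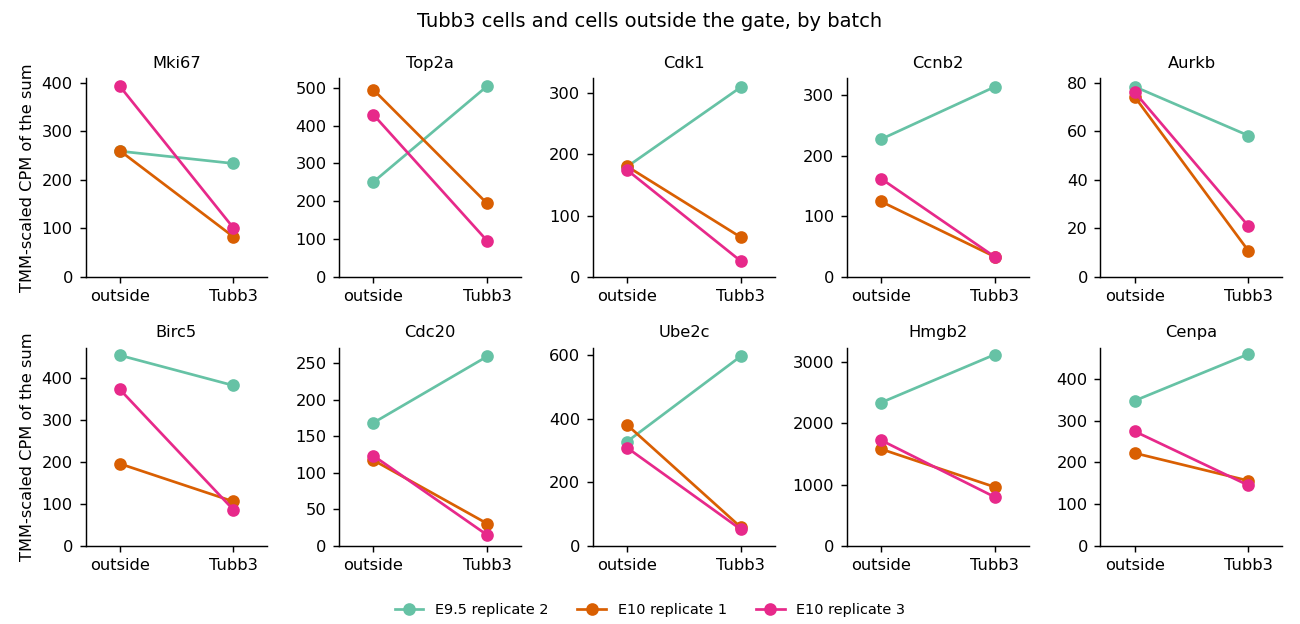
TMM-scaled CPM of 10 genes in the summed Tubb3 cells and in the summed cells outside the gate, 1 line for each of 3 batches, on axes from 0. The lines of E10 replicates 1 and 3 slope down toward the Tubb3 cells in every panel, while that of E9.5 replicate 2 slopes up in 7 of the 10, Top2a (251 to 505 CPM) and Ube2c (328 to 596 CPM) among them.

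Other genes of the pathway in the Tubb3 cells were read from lists of known function. E2f4, a transcription factor of the complex that represses cell cycle genes, fell (log2 -1.65, SE 0.36, edgeR adjusted p = 0.019), as did Usp1, a deubiquitinase of the replication list (-1.95, SE 0.44, adjusted p = 0.0214). E2f4 was at 33.1, 43.0 and 41.0 CPM inside the gate in E10 replicates 1 and 3 and E9.5 replicate 2, against 81.7, 151 and 147 outside, with no overlap. Of the 33 replication genes 33 had a negative fold change and 1 was called (3.03%), near the 1.97% of all genes called lower. Of 30 other G2 and mitosis regulators 28 were negative and 0 were called by edgeR. Among 11 tested inhibitors and exit genes 3 rose (27.3%), beside 3.19% of all genes. They were Cdkn1c (log2 3.33, SE 0.25, edgeR adjusted p = 1.08e-05), Cdkn2d (2.07, adjusted p = 0.00524) and Gadd45g (1.39, adjusted p = 0.0399). Cdkn1c was at 2973, 3190 and 3942 CPM inside and at 274, 354 and 383 outside, in the same order of batches. Its relation to the levels of the members was not tested.

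In Sox10 cells 4 members fell in edgeR's quasi-likelihood test over 4 batches, Smc4, Cdc20, Birc5 and Mki67, against 1.47% of 11240 genes called lower. None rose (1.98% of genes), 17 had an unadjusted p under 0.05 (15.9%), and the median log2 fold change was -0.57 over the members and -0.14 over all genes. Smc4, a core condensin subunit, was at 108, 163, 175 and 179 CPM inside the gate in E10 replicates 1 and 3 and E9.5 replicates 1 and 2, and at 338, 342, 332 and 380.1 outside. Its groups do not overlap (log2 -1.18, SE 0.21, edgeR adjusted p = 0.00567). Birc5 was at 90.2, 144, 268 and 216 CPM inside and at 197, 309.9, 344 and 475 outside in the same order, lower in 4 of 4 batches (-0.94, SE 0.22, edgeR adjusted p = 0.0273).

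Cdc20 was at 32.6, 24.0, 33.6 and 164 CPM inside and 118, 102, 120.3 and 183 outside (-1.49, SE 0.34, edgeR adjusted p = 0.0261). Mki67 was at 93.9, 205, 105 and 169.6 CPM inside and 262, 322, 179 and 266 outside (-0.89, SE 0.23, edgeR adjusted p = 0.048). Both were lower in 4 of 4 batches, with groups that overlap when batches are not paired. Top2a did not keep 1 direction: it was at 124 against 505 CPM in E10 replicate 1 and at 376 against 272 in E9.5 replicate 2. Cdk1, Ccnb2, Ube2c and Cenpa also lay above their partners in E9.5 replicate 2, at 227 against 193 CPM for Cdk1. Of the 52 members 21 were lower in every batch and 0 higher in every batch. That count is not given over all genes, whose median log2 fold change was also negative (-0.14).

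The Sox10 calls rested on few libraries. Without E10 replicate 3 Smc4 alone was called (1.12% of genes lower), and without E10 replicate 1 there were 2 calls (1.56%). Leaving out E9.5 replicate 1 gave 2 (1.45%), and leaving out E9.5 replicate 2 gave 3 (0.792%). Smc4 was among the calls in each of these. Without the batch block there were 0 (0.151% of genes lower), and against the 67 cells of no gate in place of all others also 0 (0.224%). There was 1 after thinning each cell to 30000 UMIs (1.81%), and DESeq2 called 8 (4.51%). The edgeR test of a stage difference in this contrast called 0 members and 0 of 11240 genes. At an unadjusted p under 0.05 there was 1 member, beside 3.03% of all genes. DESeq2 was not run on this difference.

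In the same Sox10 test Ccna2, cyclin A2 (log2 -1.04), Spc24, an outer kinetochore subunit (-1.34), the flap nuclease Fen1 (-1.27) and the replication licensing inhibitor Gmnn (-1.04) fell, with edgeR adjusted p of 0.0439, 0.0051, 0.025 and 0.0239. Cdkn1c rose (2.94, SE 0.21, edgeR adjusted p = 7.52e-06), at 2323, 3768, 1279 and 4138 CPM inside and 253, 674, 203 and 387 outside, without overlap. Ccnd1, the G1 cyclin D1, rose too (1.63, SE 0.30, adjusted p = 0.00648). Within the gate, the 14 quiet cells had a median of 10.4 CPM of Mki67 and the 16 others 225, and the neuronal list had 2774 against 497 CPM. The neural crest and glia list had 621 against 997 CPM, and Cdkn1c 3592 against 2182, each with overlapping ranges. Quiet cells were 12 of 19 among cells of the Tubb3 gate alone, 7 of 18 among those of the Sox10 gate alone, and 7 of 12 in both.

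Tubb3-only cells were compared with Sox10-only cells in the 2 batches that had at least 3 of each, E10 replicates 1 and 3. Ube2c was lower in the Tubb3-only cells, at 107 against 275 CPM and 38.9 against 333 (log2 -2.23, SE 0.65, edgeR adjusted p = 0.0445), beside 0.396% of 10104 genes called lower and 1.11% higher. That call ended under each of 6 settings: DESeq2's size factors in edgeR, no filter, halved gate limits, no block, thinned cells and library totals. The other members were not called. Mki67 was at 138 against 132 CPM in E10 replicate 1 and 134 against 476 in replicate 3, and Hmgb2 at 1219 against 1245 and 537 against 1722, so the gap stood in replicate 3. There, 48 of 52 members were lower in the Tubb3-only cells, and 32 of 52 in replicate 1.

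Alas2 cells, with erythroid transcripts, had 13 of 52 members higher (25.0%) in edgeR's test over 3 batches under TMM scaling, against 12.1% of 11268 genes called higher, and none lower (11.7% of genes). Mki67 was at 383 CPM inside against 149 outside in E9.5 replicate 2, 748 against 262 in E10 replicate 2 and 600.0 against 169 in E10 replicate 3, and rose by 1.57 on the log2 scale (SE 0.26, edgeR adjusted p = 1.39e-05). Tubb4b, a beta-tubulin, was at 515 against 258 CPM, 380.0 against 161 and 556 against 110.1 (1.52, SE 0.28, adjusted p = 6.93e-05). Lbr, which anchors heterochromatin to the nuclear envelope, was at 141 against 67.3, 173 against 85.7 and 222 against 59.2 (1.33, adjusted p = 0.000521). The inside values of Mki67, Tubb4b and Lbr all lay above every outside value.

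Hmmr, a spindle protein, was at 106 against 69.6 CPM, 183 against 90.4 and 174 against 44.1 (1.20, SE 0.30, edgeR adjusted p = 0.00239). Smc4 (0.96, edgeR adjusted p = 0.00503) and the kinetochore subunit Nuf2 (1.06, adjusted p = 0.0373) completed the 6 largest, and Birc5 (0.87, adjusted p = 0.0113), Cdca8, Aurka, Kif11, Nusap1, Ckap2l and Cdca3 were also called. Calls fell on 10 of the 39 members not listed here as also used outside mitosis, and on 3 of the 13 listed so. The passenger complex genes were higher in every batch in 3 of 3 (median log2 0.84), and 2 of them were called. Others were nearer to their partners: Cdk1 was at 168 against 150.4 CPM, 94.6 against 83.2 and 122 against 97.2, Cenpa at 234 against 292, 192 against 233 and 273 against 163, and Cdc20 at 80.7 against 155, 64.4 against 84.1 and 63.1 against 72.4. The log2 fold change was 0.23 for Cdk1 and 0.05 for Cenpa, and no call was made for Cdk1, Cenpa or Cdc20.

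These directions depended on the scaling. Haemoglobin took a median of 18.6% of an Alas2 cell's UMIs, and its part in this dependence was not tested. With haemoglobin genes left out of the fit, TMM gave the same 13 higher calls, beside 12.1% of genes. The median over all genes was -0.14 under TMM and -1.004 under library totals, and that over the members 0.21 and -0.65. Under library totals 2 members, Mki67 (0.70, edgeR adjusted p = 0.0124) and Tubb4b (0.66, adjusted p = 0.0446), were called higher (2.92% of genes) and 15 lower (29.1%), Hmgb2 (-1.09) and Cdc20 (-1.37) among them. The member median lay above the all-gene median under both. Without E9.5 replicate 2 there were 4 higher calls (4.29% of genes), and without E10 replicate 3 there were 9 (9.08%). Without E10 replicate 2 there were 10 higher (12.1%) and 1 lower (12.6%). There were 4 against cells of no gate (6.15%), 4 after thinning (10.5%) and 5 without the block (8.10%). Mki67, Tubb4b and Lbr were among the calls in each of these 6. As E9.5 had 1 batch in this contrast too, a stage difference cannot be told apart from a batch difference.

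Replication genes also stood higher in Alas2 cells under TMM, with 17 of 33 called (51.5%) beside 12.1% of all genes. Of 30 other G2 and mitosis regulators 9 were called higher and 0 lower. Among 17 genes of the anaphase-promoting complex list 4 were called higher and 1 lower. Fen1 was at 249 against 80.4 CPM in E9.5 replicate 2, 229 against 93.8 in E10 replicate 2 and 291 against 59.6 in E10 replicate 3 (log2 1.73, SE 0.28, edgeR adjusted p = 7.97e-06). Pcna, the sliding clamp, rose by 1.08 (edgeR adjusted p = 0.00223). Cdc25b, a phosphatase that activates Cdk1, rose by 2.65 (adjusted p = 1.42e-06), while Cdkn1c (-2.95, adjusted p = 1.19e-08) and Ccnd1 (-3.48, adjusted p = 1.33e-07) fell in edgeR's test. The 8 quiet Alas2 cells had a median of 186 CPM of Mki67 (84.8 to 362) and 133 of Ccnb2, against 419 and 136 in the 38 others. Their ranges overlapped, and Mki67 in quiet Alas2 cells lay far above its 8.85 CPM in quiet Tubb3 cells. Erythroid transcripts summed to 236130 CPM in the quiet and 181764 in the other Alas2 cells, and their part in the lower member sum was not tested beyond the share without haemoglobin given above.

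Prrx1 cells, the largest gate, had few calls in these genes. Of 52 members Hmgb2 and Cbx5 rose and Tubb4b fell by edgeR's test over 5 batches, beside 3.48% of 11293 genes called higher and 4.04% lower. The median log2 fold change was 0.04 over the members. Hmgb2 was at 2238 against 1440.5 CPM in E9.5 replicate 1, 2984 against 2119.7 in E9.5 replicate 2, and 1507 against 1393, 2281 against 2013 and 1702 against 1290.1 in the E10 batches (0.36, SE 0.09, edgeR adjusted p = 0.0338). Cbx5 was at 499 against 342, 546 against 379.9, 611 against 401, 696 against 525 and 467 against 410.0 CPM (0.45, SE 0.10, adjusted p = 0.0237). Tubb4b was at 194 against 213, 236 against 446, 92.6 against 156, 146 against 294 and 119 against 269 (-0.80, SE 0.16, adjusted p = 0.0124). Each moved the same way in 5 of 5 batches, with overlap between unpaired groups. The outside cells include the Alas2 cells, where Tubb4b was high, and their part in its call was not tested. Against the cells of no gate 0 members were called, beside 0.225% of genes higher and 0.0469% lower. Without the block there were also 0, beside 0.425% and 0.505%.

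Leaving out E9.5 replicate 2 ended all 3 Prrx1 calls, E10 replicate 2 both higher ones, E10 replicate 3 those of Hmgb2 and Tubb4b, E9.5 replicate 1 that of Hmgb2 and E10 replicate 1 that of Cbx5. Mki67 was at 181 to 267 CPM inside the gate over the 5 batches and at 162 to 521 outside, with a log2 fold change of -0.19 (SE 0.18, edgeR adjusted p = 0.607). Top2a was at 257 to 484 CPM inside and 277 to 545 outside (0.10, SE 0.13, adjusted p = 0.717). Among pathway genes Cdkn1c (-1.51, adjusted p = 0.00219), Cdc25b (-1.85, adjusted p = 0.0343) and Ccng1, a p53 target (-1.12, adjusted p = 0.0437), fell and Ccnd2, cyclin D2, rose (0.68, adjusted p = 0.0156) in edgeR's test. Of 33 replication genes 0 were called, beside 3.48% of all genes higher and 4.04% lower. By edgeR's test of the stage difference 0 members and 0 of 11293 genes were called. At an unadjusted p under 0.05 there were 4 members, beside 4.32% of all genes.

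The 16 quiet Prrx1 cells had medians of 8.23 CPM of Mki67 (against 233 in the 112 others), 16.5 of Top2a (against 333), 13.0 of Cdk1 (against 113), 0 of Cdc20 (against 83.0) and 524 of Hmgb2 (against 2105). Ctcf was as high in them as in the others (163 against 149 CPM), and Cbx5 nearly so (486 against 570). Cdkn1c was at 494 CPM in the quiet and 212 in the other cells, and mesenchymal markers summed to 3119 against 2016. Replication genes summed to 3846 against 5547 CPM. The erythroid list was at 681 CPM in the quiet and 8449 in the other Prrx1 cells, with ranges of 220.3 to 29771 and 175 to 122849, and its part in the contrast was not tested.

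**Figure D4:**
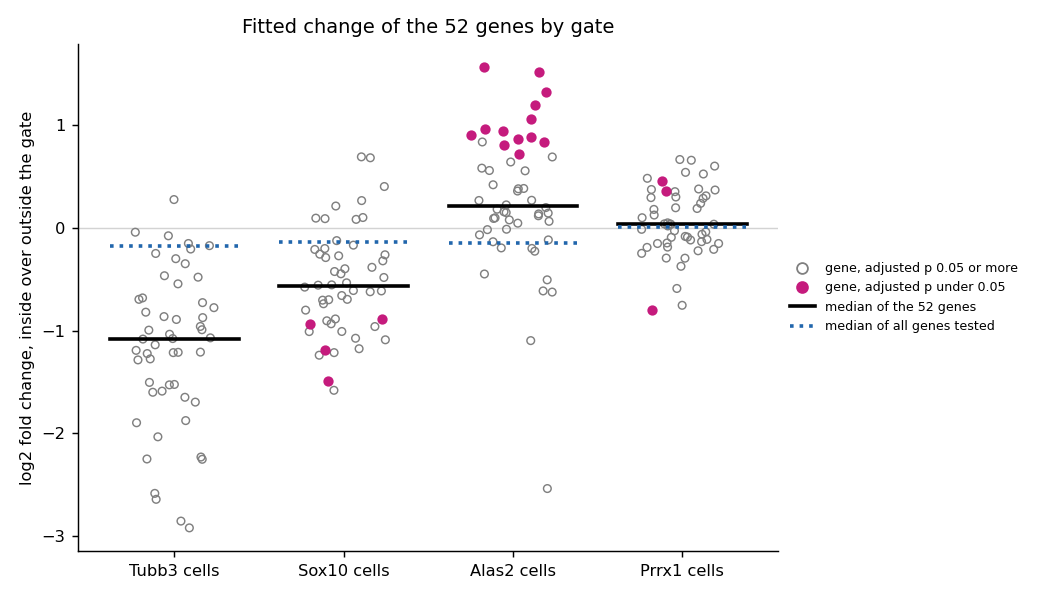
Fitted log2 fold change of the 52 genes, inside over outside the gate, by gate, with genes at an edgeR adjusted p under 0.05 filled, the median of the 52 as a bar and the median of all genes tested as a dotted line. The Tubb3 median is -1.08 with no gene called (-0.18 with halved gate limits, where Sox10 cells had -0.49), 4 Sox10 genes are called lower, 13 Alas2 genes higher under TMM scaling (2 higher and 15 lower under library totals) and 3 in Prrx1 cells.

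Dppa5a cells came from a single batch, so the 25 cells were compared with the 62 others of E10 replicate 1 without a test, and the exact Poisson 95% intervals in parentheses cover counting error only. Past 2-fold, 3 of 52 members were higher (12.9% of 14777 genes) and 0 lower (23.9%). Ckap2, of the spindle group, was at 81.9 CPM (77.5 to 86.6) against 28.3 (26.4 to 30.3), a ratio of 2.90. Gtse1, of the same group, was at 79.1 (74.7 to 83.7) against 29.6 (27.6 to 31.6), a ratio of 2.68, and Gas2l3 at 17.1 (15.1 to 19.3) against 7.93 (6.94 to 9.02), a ratio of 2.15. The median ratio was 0.96 over the members and 0.82 over all genes. These ratios weigh cells by their UMIs, and the medians over cells stood otherwise, with 42 of 52 members higher in the median cell inside the gate. Aurka had 79.9 against 6.61 CPM, Cdc20 117 against 22.6 and Hmmr 95.6 against 15.5, although the ratio of the sums was 0.79 for Hmmr. The count of 42 is not given over all genes. Quiet cells were 20 of the 87 in this batch, and 2 of these lay inside the gate. Mki67 was at 237 CPM (229.8 to 245) inside and 287 (281 to 293) outside, and Cdk1 at 236 (229 to 244) against 162 (157 to 166). The 2 quiet Dppa5a cells had a median of 42.4 CPM of Mki67 and the 23 others 174.

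Between the stages, no member was called over all cells by edgeR's test (2 batches of E9.5 against 3 of E10), nor was any other gene (0% of 14103), and DESeq2 called 0 members. At an unadjusted p under 0.05 there were 3 members against 7.93% of all genes, Cks1b, Cks2 and Hjurp, which are named because they are so few. Mki67 was at 165 and 239.8 CPM at E9.5 and 232, 484 and 289 at E10. Top2a was at 287 and 273 CPM and at 444, 536 and 311, which do not overlap (log2 0.62, SE 0.29, edgeR adjusted p = 0.622). Without overlap, 8 of 52 members lay higher at E10 and 7 lower, a count not given over all genes. Cks1b, a small partner of cyclin-dependent kinases, was at 572 and 609.7 CPM at E9.5 and 361, 421 and 343 at E10 (-0.66, adjusted p = 0.616). Hjurp was at 5.74 and 11.3 CPM and at 24.3, 27.4 and 15.8 (1.40, adjusted p = 0.616).

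The mix of gates differed between batches, so the stages were also compared within Prrx1 cells. Again 0 members and 0% of 11530 genes were called by edgeR, with 10 members at an unadjusted p under 0.05 (10.2% of all genes) and 0 by DESeq2. Top2a was at 329 and 264 CPM at E9.5 and at 508, 458 and 422 at E10 (log2 0.64, SE 0.23, edgeR adjusted p = 0.447). Mki67 was at 187 and 209.9 CPM at E9.5 and 277, 277 and 274 at E10, and Hmgb2 at 2302 and 3067 against 1583, 2364 and 1764. Mki67 and Top2a did not overlap between the stages, while Hmgb2 did. Without overlap, 13 of 52 members lay higher at E10 and 10 lower, a count not given over all genes. On simulated counts for the stage comparison (14452 genes, 2 and 3 batches), 3% of 2-fold changes were called and 76% of 4-fold ones. The simulation gave every gene 1 fixed spread, not estimated from these batches, and every batch the same gene proportions. These shares are therefore not the power of the tests on the real counts.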

How the data were processed

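Per the labels, single cells were made into libraries with a modified STRT-seq protocol. Per the submitters' processing notes, CASAVA 1.8, TopHat2 2.0.12 and HTSeq were used with mm10. The authors deposited 1 table of whole-number UMI counts for 480 columns, 111 of them with 0 UMIs. No strand setting is given in the sources used here, so overlapping genes and near-identical copies are uncertain. Columns were matched to batches by batch number.

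The 95 spike-in rows were dropped. No doublet caller was run. UMIs of at least 3 cells a side were summed per batch and tested with edgeR 4.0.16 (filterByExpr, TMM, Benjamini-Hochberg 0.05) in R 4.3.3, against DESeq2 1.42.0. The batch was a block in gate tests, as both sums of a batch come from 1 collection. A standard error is the log2 fold change over the square root of F. The tests were tested on simulated data with a fixed spread that was not estimated from these batches. The 10 members (Mki67, Top2a, Cdk1, Ccnb2, Aurkb, Birc5, Cdc20, Ube2c, Hmgb2, Cenpa) were always read, and up to 6 called members a direction, moved alike in every batch. Members, lists, gates and tests were chosen with earlier results of these data known. Other members (Kif11 and those with extreme levels or correlations) and pathway genes called were named after their values were seen.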

Additional observations from a re-analysis of the deposited data

How the results depend on the processing

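Depth and cell number limit these results: 31 Tubb3 and 30 Sox10 cells were spread over 4 and 5 batches. Simulated 2-fold changes were recovered in 3% of cases for the Tubb3 test (12500 genes) and 27% for the Prrx1 test (12192 genes). The spread in that simulation was fixed and not estimated from these batches, so these are not the power of the tests here. Each batch is of 1 stage. The cause of each change below was not tested. Not run were sums of at least 10 cells for Tubb3 cells and for Tubb3-only against Sox10-only cells, leaving out a batch in the latter (2 batches), and every alternative test for Dppa5a cells (1 batch). No kept well repeated one of another batch, so leaving out repeats changed nothing.

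The count of members called moved as follows. With no filter it was 19 for Tubb3 (3.12% of all genes lower), 7 for Sox10 (2.13%) and 0 for Tubb3-only against Sox10-only cells. It was then 1 for the stages within Prrx1 cells, a count not given over all genes. DESeq2 gave 14 for Tubb3 (5.98% of genes lower) and 8 for Sox10 (4.51%). For Prrx1 it gave 5, of which 4 were higher (6.52% of genes) and 1 lower (8.15%). Leaving out 1 batch gave 0 to 26 for Tubb3, 1 to 3 for Sox10, 4 to 11 for Alas2 and 0 to 2 for Prrx1. In the Prrx1 fits 1.28 to 3.77% of all genes were then called higher and 1.59 to 4.26% lower. Without the replicate block, which pairs the sums of a batch, the counts were 0 for Tubb3, 0 for Sox10, 5 for Alas2, 0 for Prrx1 and 0 for Tubb3-only against Sox10-only cells. Against cells of no gate they were 0 for Sox10, 4 for Alas2 and 0 for Prrx1, and after thinning 1 for Sox10, 4 for Alas2 and 0 for Tubb3-only. Library totals gave 17 for Alas2, turned round with 2 higher (2.92% of genes) and 15 lower (29.1%). They gave 6 for Prrx1, of which 5 were higher (4.4% of genes) and 1 lower (2.95%). For Tubb3-only cells they gave 0, as did DESeq2's size factors and halved gates. With quiet set at 0.25 of the median the share was 4.42% of all cells, 29.0% of Tubb3, 10% of Sox10, 2.17% of Alas2, 0% of Dppa5a and 0% of Prrx1 cells. Leaving out 1 batch moved it to 16.0 to 22.5% of all, 40.0 to 69.2% of Tubb3, 42.9 to 48.0% of Sox10, 13.9 to 21.7% of Alas2 and 9.33 to 14.02% of Prrx1 cells.

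Single members turned round in these settings, given as log2 fold changes. Leaving out 1 batch moved Aurkb between -0.234 and 0.158 and Ube2c between -0.139 and 0.291 for the stages over all cells. For the stages within Prrx1 cells it moved Cdk1 between -0.021 and 0.575, Aurkb between -0.294 and 0.02 and Ube2c between -0.281 and 0.534. It moved Top2a in Sox10 cells between -0.766 and 0.038, Ube2c and Cenpa in Alas2 cells between -0.101 and 0.623 and between -0.271 and 0.242, and Cdk1 and Ccnb2 in Prrx1 cells between -0.335 and 0.196 and between -0.043 and 0.095. Library totals gave 0.083 for Aurkb between stages, 0.089 for Cdk1 and 0.016 for Birc5 in Prrx1 cells, and in Alas2 cells -0.305 for Top2a, -0.64 for Cdk1, -0.222 for Ccnb2, -0.026 for Aurkb, -0.593 for Ube2c and -0.815 for Cenpa. Thinning gave -0.029 for Ube2c between stages, 0.007 for Cenpa in Sox10 cells, -0.176 for Cdk1, -0.222 for Ube2c and -0.173 for Cenpa in Alas2 cells, and 0.125 for Cdk1 and 0.036 for Birc5 in Prrx1 cells. Halved gates gave -0.065 for Cdk1 and -0.248 for Ube2c between stages within Prrx1 cells, 0.115 for Hmgb2 in Tubb3 cells, and 0.192 for Cdk1, 0.147 for Aurkb and 0.107 for Ube2c in Prrx1 cells. Against cells of no gate, Ube2c was -0.025 and Cenpa -0.093 in Alas2 cells, and Top2a -0.086, Ccnb2 -0.17 and Cdc20 -0.192 in Prrx1 cells. A limit of 5000 UMIs gave 0.068 for Hmgb2 in Tubb3 cells, and leaving out the block 0.072 for Cdc20 in Tubb3-only against Sox10-only cells.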

Other observations

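The cells with the highest member sums were not of 1 kind. The highest, 26517 CPM, was a Tubb3 cell of E10 replicate 2 with Hmgb2 at 7253 CPM, Ube2c at 1299, Top2a at 1179 and a UMI of 52 of the 52 genes. The third, 23636 CPM, was in both the Tubb3 and Sox10 gates of E9.5 replicate 2, with Cdk1 at 939 CPM and Ube2c at 1660. Cells of 23871 and 23282 CPM were in no gate, and the former had Top2a at 2354 and Cdk1 at 1423 CPM. Hmgb2 was the most abundant member in each of the 10 highest cells.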
